A study of Mus musculus with 8 samples.

Results

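Activator protein 1 (AP-1) is a family of leucine-zipper transcription factors that bind DNA as dimers. JUN proteins can pair with each other or with FOS proteins, whereas FOS proteins need a JUN partner. In epithelial cells the family is switched on by growth factors, by stress and by MAPK signaling, and AP-1 factors are known to bind chromatin together with the SMAD complex that carries the TGFβ signal. The members described here were chosen by gene name in the count table: *Fos*, *Fosb*, *Fosl1* and *Fosl2* (FOS family), *Jun*, *Junb* and *Jund* (JUN family), and the related factors *Atf3* and *Maff*, 9 genes of 53465. All 9 passed the filter on low counts and were tested.

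RNA was measured in 8 libraries from cultured mouse pancreatic ductal adenocarcinoma (PDAC) cells of KC-shSmad4 mice. These mice carry *Ptf1a*-Cre, which recombines in the pancreas, a Cre-activated oncogene, the Dox-dependent activator rtTA3 with the mKate2 reporter, and a Dox-inducible, GFP-linked shRNA against *Smad4*; all groups share these alleles. The lines B73 and B87 each came from a primary tumor and grew in serum. Continuous Dox gave the Smad4-off state, and withdrawal of Dox 5 days before plating gave the Smad4-on state. From 24 h after plating, cells of each state received 100 pM TGFβ1 or 2.5 µM SB505124, which blocks the kinase of the type I TGFβ receptor, for 24 h. Each of the 4 groups thus held 2 libraries, 1 per line. TGFβ1 was set against the inhibitor and not against untreated cells, and the effect of Smad4 cannot be told apart from that of Dox itself, since no line with a control shRNA was analysed here.

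Libraries held 18389235 to 23440550 counts, so that 3 counts, the least taken as detectable, came to 0.125 to 0.162 CPM (counts scaled to a library total common to all libraries). *Smad4* itself was at 33.7 to 35.5 CPM in the 4 Smad4-off libraries and at 97.4 to 117 CPM in the 4 Smad4-on libraries as their labels state. Markers of pancreatic ductal epithelium (keratins, *Epcam*, *Cdh1*, *Sox9*; 7 genes) summed to 3940 to 6210 CPM in B73 but 1220 to 2110 CPM in B87. Those of fibroblasts (6 genes) summed to 4 to 8.88 CPM in B73 and to 43.9 to 647 CPM in B87. Within B87 the sum differed between the groups, and *Col1a1* made up 25.9 of 43.9 CPM in Smad4-off cells under SB505124, 119 of 152 in Smad4-on cells under SB505124, 161 of 184 in Smad4-off cells under TGFβ1 and 627 of 647 in Smad4-on cells under TGFβ1, while *Col1a2*, which encodes the other chain of the same collagen, was at or under 0.255 CPM. Leukocyte and acinar markers stayed at or under 6.44 CPM and 1.37 CPM in sum, with 4 genes of each list at no more than 3 counts in every library. Endothelial markers reached 26.1 CPM. The model below holds a term for the line, which does not take up differences of these markers between the groups. In bulk RNA, fewer expressing cells and less RNA per cell cannot be told apart.

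The first question was which AP-1 genes these cells transcribe. Levels between genes were compared per length, as RPKM over the union of each gene's exons. With the TGFβ receptor inhibited, *Fosl1* (FRA-1, a FOS protein without the strong activation domain of FOS) led with 26.3 ± 4.48 RPKM in Smad4-off cells and 33.7 ± 6.27 RPKM in Smad4-on cells (SD, n = 2 for all group values). *Jund*, the most constantly expressed JUN gene in many tissues, followed with 21.6 ± 4.64 and 24.5 ± 2.83 RPKM. *Junb* came after them at 17.3 ± 1.92 and 20.7 ± 3.58 RPKM. The libraries of *Jund* and *Junb* overlapped in both groups, and *Junb* came before *Jund* when the longest transcript was taken as the length; *Fosl1* overlapped *Jund* in Smad4-off cells. Under TGFβ1 *Junb* stood far above the rest, at 122 ± 9.16 RPKM in Smad4-off and 189 ± 13.8 RPKM in Smad4-on cells. The next gene there was *Fosl1* at 29.7 ± 6.08 RPKM and *Jun* at 38.4 ± 17.2 RPKM, respectively, and the next 3 genes after *Junb* (*Fosl1*, *Maff*, *Jun*) overlapped in both groups. *Fos* and *Fosb*, the classic transient responders, were the lowest of the 9 in every group, between 0.149 ± 0.0151 RPKM (*Fosb*, Smad4-on, SB505124) and 2.55 ± 0.0559 RPKM (*Fosb*, Smad4-on, TGFβ1). 

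**Figure D1:**
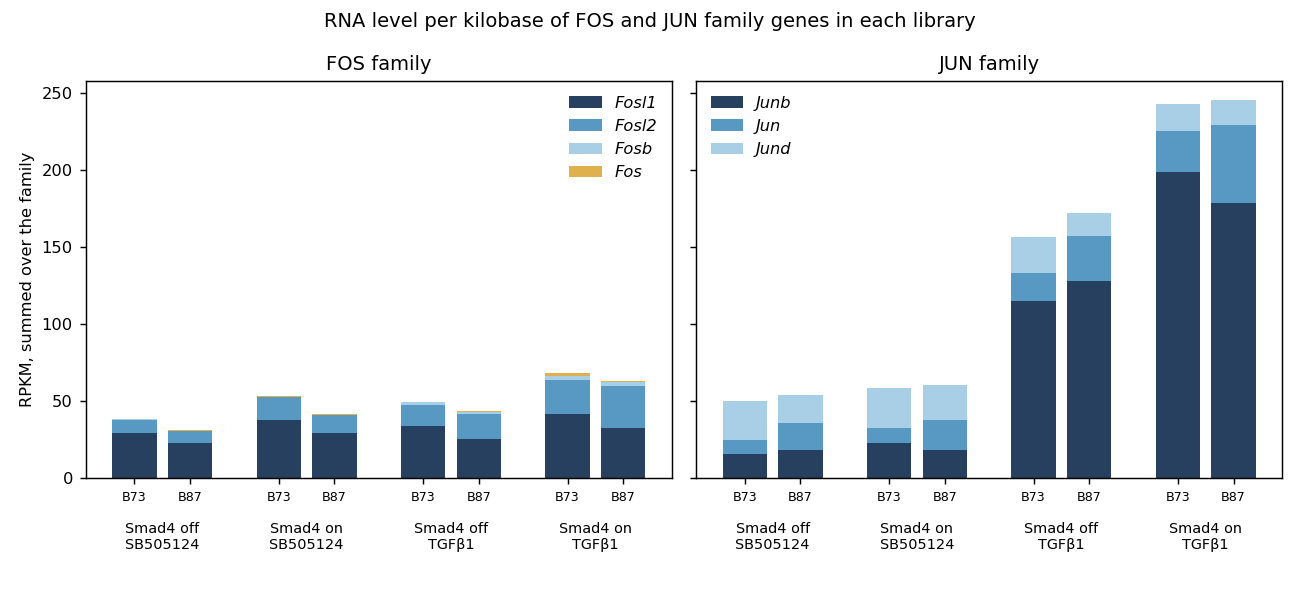
Stacked bars of RPKM for the FOS family (left) and JUN family (right) in each of the 8 libraries; bars start at 0 and each color is a gene. Summed JUN family RNA ran from 50 to 60.3 RPKM under SB505124, 157 to 173 in Smad4-off and 243 to 246 in Smad4-on cells under TGFβ1, and most of the added height is *Junb*.

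The make-up of the families followed from these levels. *Junb* supplied 33.1% ± 1.8 (Smad4-off) and 34.8% ± 6.5 (Smad4-on) of the summed JUN family RPKM under SB505124, and 73.8% ± 0.71 and 77.5% ± 6.4 under TGFβ1. The share of *Jund* was 41.7% ± 11 and 41.1% ± 5.4 under SB505124 against 11.9% ± 4.3 and 6.85% ± 0.48 under TGFβ1. Shares add up to a whole, so a falling share does not by itself mean less RNA. In the FOS family *Fosl1* held 75.2% ± 1.6 in Smad4-off cells under SB505124 and 56.3% ± 6.8 in Smad4-on cells under TGFβ1, and *Fosl2* (FRA-2) held 23.3% ± 1.4 and 37.8% ± 7.1. These FOS shares depend on gene length: as CPM, without division by length, *Fosl2* held more than *Fosl1* in every group (58.7% ± 2.1 against 39.9% ± 1.9 in Smad4-off cells under SB505124). *Fosl1* and *Jund* overlap a gene on the other strand, *Ccdc85b* and the antisense *Gm11175*, along 50.2% and 45.9% of their 75-base stretches, and the strand setting of the counting is not given in the sources used here, so their levels are the least certain. The overlap is 5.07% for *Jun* (with *Junos*) and 4.74% for *Junb* (with *Prdx2*).

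The main comparison, TGFβ1 against the receptor inhibitor, was made for each Smad4 state with edgeR's quasi-likelihood test. A gene is said to have risen or fallen when its Benjamini-Hochberg adjusted p over the 14301 tested genes was under 0.05, and to be called when it also changed more than 2-fold. In Smad4-on cells 5 of the 9 members were called, all higher (*Fosb*, *Jun*, *Junb*, *Atf3*, *Maff*), where 5.62% of all tested genes were called higher and 13.9% in either direction. By adjusted p alone, 6 rose and 1 fell, against 15.6% and 17.6% of all genes. In Smad4-off cells *Fosb* and *Junb* were called higher, 2 members, against 3.11% of all genes (5.93% in either direction), and 5 rose by adjusted p alone, against 6.96%. The 9 had a median log2 fold change of 1.00 with Smad4 on and 0.87 with Smad4 off, beside −0.02 for all tested genes in both. Some markers of cell type moved in the same comparison. The fibroblast marker *Col1a1* was called higher in both states (2.43 on, 2.73 off) as the only one of 4 tested, the ductal *Krt19* lower in both (−2.33 and −1.46) and *Cdh1* lower with Smad4 on (−2.31), of 7 tested. The endothelial *Cdh5* was called higher in both (3.79 and 4.08) and *Kdr* higher with Smad4 off (2.02), of 2 tested. Their part in the AP-1 values was not tested.

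**Figure D2:**
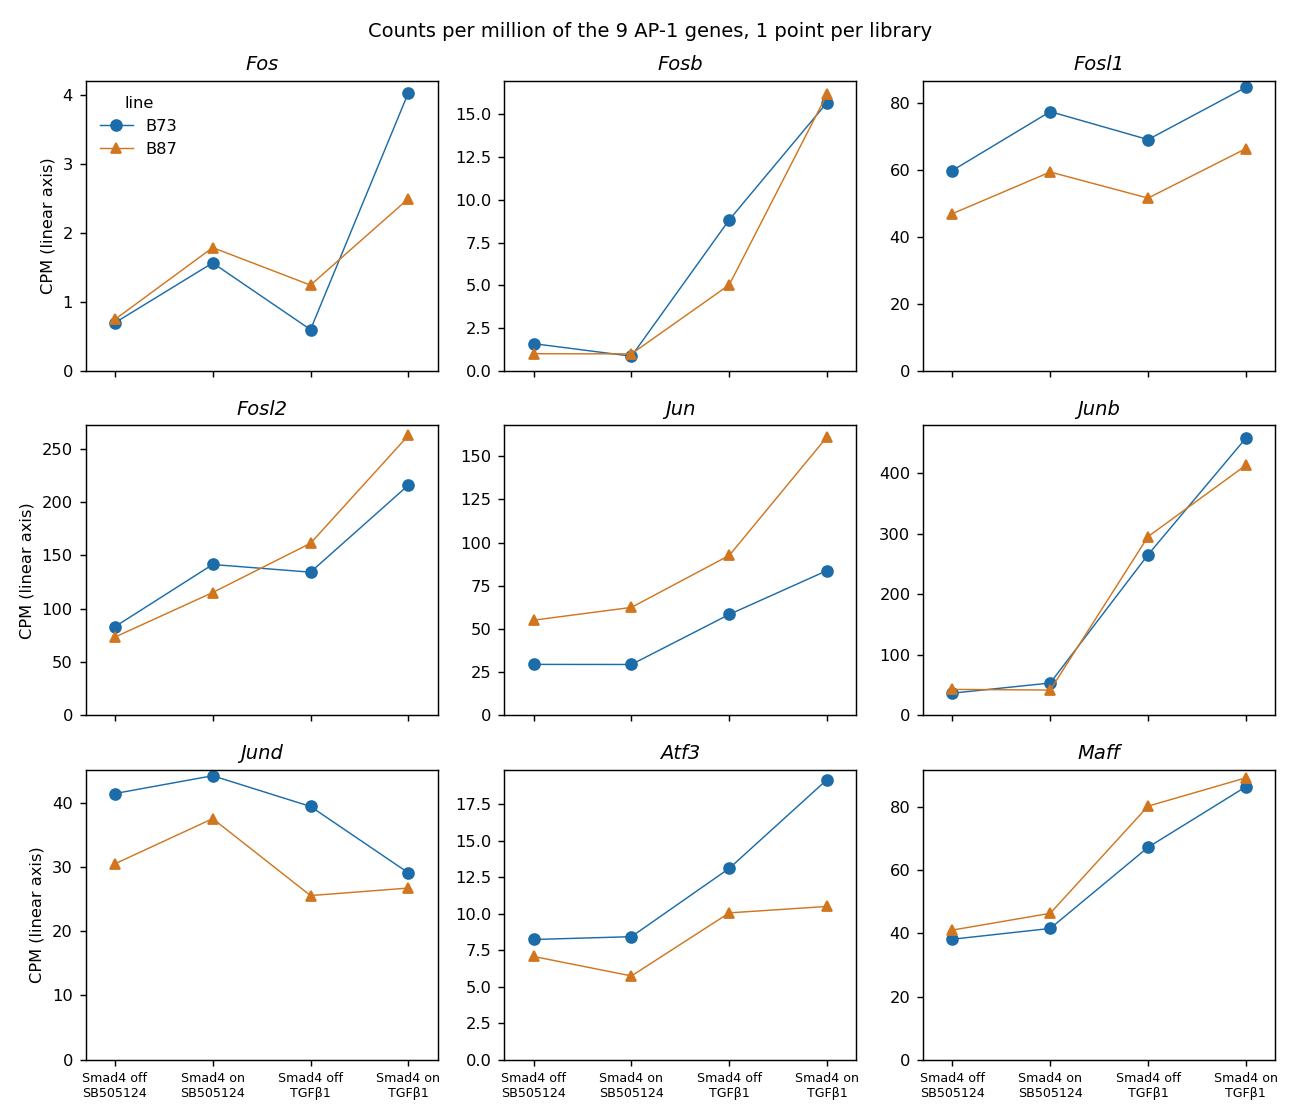
CPM of each AP-1 gene (1 panel per gene, linear axis from 0, scales differ between panels) in the 4 groups; each point is 1 library, circles B73 and triangles B87, and lines only join libraries of the same cell line. *Junb* and *Fosb* climb steeply between the SB505124 and the TGFβ1 groups in both lines, *Jun* stands higher in B87 throughout, and *Fosl1* changes little.

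*Junb*, whose protein can both activate and restrain JUN targets, changed most in level. It was at 36.6 CPM in B73 and 42.9 CPM in B87 in Smad4-off cells under SB505124, at 53.4 and 41.8 CPM in Smad4-on cells under SB505124, at 265 and 295 CPM in Smad4-off cells under TGFβ1, and at 458 and 413 CPM in Smad4-on cells under TGFβ1. Every TGFβ1 library lay above every SB505124 library with a wide gap between them. The rise was 9.16-fold in Smad4-on cells (log2 fold change 3.20 ± 0.15 SE, adjusted p = 5.78e-05) and 7.04-fold in Smad4-off cells (2.82 ± 0.15, adjusted p = 0.000338, edgeR). *Junb* lies at chr8:84974484-84978718 on the minus strand (GRCm38).

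*Jun*, the founding JUN gene, lies at chr4:95049034-95052222 on the minus strand. It was at 29.5 CPM in B73 and 55.1 CPM in B87 in Smad4-off cells under SB505124, at 29.4 and 62.5 CPM in Smad4-on cells under SB505124, at 58.4 and 92.6 CPM in Smad4-off cells under TGFβ1, and at 83.8 and 161 CPM in Smad4-on cells under TGFβ1. The B73 TGFβ1 libraries overlapped the B87 SB505124 libraries, but within each line both TGFβ1 libraries were the higher ones. The log2 fold change was 1.43 ± 0.11 in Smad4-on cells (adjusted p = 0.00026) and 0.87 ± 0.11 in Smad4-off cells (adjusted p = 0.00457, edgeR), the latter short of 2-fold. Without the term for the line the Smad4-on call of *Jun* was lost in edgeR (adjusted p = 0.13) and kept in DESeq2 (adjusted p = 0.0174). The Smad4-off rise of *Jun* did not pass without this term (adjusted p = 0.488 in edgeR, 0.352 in DESeq2). Nor did the fall of *Jund* given next pass without it (adjusted p = 0.188 in edgeR, 0.174 in DESeq2). *Jund*, whose protein is linked to restraint of growth in several cell types, went the other way: 41.4, 44.2, 39.4 and 29.1 CPM in B73 and 30.5, 37.5, 25.6 and 26.7 CPM in B87, in the same order of groups. It fell in Smad4-on cells (−0.54 ± 0.14, adjusted p = 0.0225), which was lost on leaving out either Smad4-on SB505124 library or the Smad4-on TGFβ1 library of B73 (adjusted p up to 0.143), and was at −0.16 ± 0.14 in Smad4-off cells (adjusted p = 0.507, edgeR).

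*Fosb*, at chr7:19302696-19310051 on the minus strand, had the largest fold change of the 9 in Smad4-on cells. It was at 1.6 CPM in B73 and 1.01 CPM in B87 in Smad4-off cells under SB505124, at 0.865 and 0.998 CPM in Smad4-on cells under SB505124, at 8.83 and 5.03 CPM in Smad4-off cells under TGFβ1, and at 15.7 and 16.2 CPM in Smad4-on cells under TGFβ1. These are 16 to 32 counts per library under SB505124 and 101 to 317 under TGFβ1, and no SB505124 library reached a TGFβ1 library. The log2 fold change was 4.07 ± 0.32 in Smad4-on cells (adjusted p = 0.000252) and 2.40 ± 0.30 in Smad4-off cells (adjusted p = 0.00438, edgeR). Both *Fosb* calls and both *Junb* calls remained on leaving out each of the 8 libraries in turn.

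The other FOS genes moved less. *Fosl2* was at 83.1 CPM in B73 and 73.4 CPM in B87 in Smad4-off cells under SB505124, at 142 and 115 CPM in Smad4-on cells under SB505124, at 134 and 161 CPM in Smad4-off cells under TGFβ1, and at 216 and 262 CPM in Smad4-on cells under TGFβ1. It rose by almost the same amount in both Smad4 states (0.90 ± 0.16, adjusted p = 0.00561, and 0.92 ± 0.16, adjusted p = 0.0127, edgeR), just under 2-fold. In Smad4-off cells this no longer passed without either SB505124 or TGFβ1 library of B87 (adjusted p up to 0.109). *Fosl1*, a target of MAPK signaling in many carcinomas, spanned 59.9 to 84.7 CPM over the B73 libraries and 47 to 66.4 CPM over those of B87. Its log2 fold changes were 0.14 ± 0.08 with Smad4 on (95% interval −0.04 to 0.33) and 0.17 ± 0.08 with Smad4 off (−0.01 to 0.36). *Fos* stayed low, with 14 to 79 counts per library. Its TGFβ1 values were 0.96 ± 0.39 in Smad4-on cells (adjusted p = 0.104) and 0.33 ± 0.48 in Smad4-off cells (adjusted p = 0.703, edgeR), with intervals wide enough to hold a 2-fold rise in both.

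*Atf3* and *Maff* are stress-responsive partners of the family: *Atf3* encodes an ATF/CREB factor that is often a repressor, and *Maff* a small MAF protein that lacks an activation domain. *Atf3* (chr1:191170296-191218039, minus strand) was at 8.24, 8.43, 13.1 and 19.2 CPM in B73 and at 7.07, 5.74, 10.1 and 10.5 CPM in B87, in the group order used for *Jund*. Its TGFβ1 libraries all lay above its SB505124 libraries, by a small margin. It was called in Smad4-on cells (1.04 ± 0.19, adjusted p = 0.00679) and not in Smad4-off cells (0.58 ± 0.19, adjusted p = 0.093, edgeR). Without the Smad4-on TGFβ1 library of B73 the Smad4-on value was 0.78, under 2-fold. Leaving out the term for the line, the Smad4-on call was lost in edgeR (adjusted p = 0.0956) and kept in DESeq2 (adjusted p = 0.0415).

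*Maff* (chr15:79347541-79359072, plus strand) was at 38.1, 41.5, 67.2 and 86.4 CPM in B73 and at 41, 46.3, 80.2 and 89.2 CPM in B87. No SB505124 library reached a TGFβ1 library. Its log2 fold change in Smad4-on cells, 1.00 ± 0.09 (adjusted p = 0.000381), sat on the 2-fold line, and it was 0.89 ± 0.09 in Smad4-off cells (adjusted p = 0.00197, edgeR). Leaving out either Smad4-on library of B73 put the Smad4-on value of *Maff* under 2-fold (lowest 0.94). In all, 4 members (*Fosb*, *Junb*, *Atf3*, *Maff*) had every TGFβ1 library above every SB505124 library, a pattern found in 12.7% of the tested genes.

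**Figure D3:**
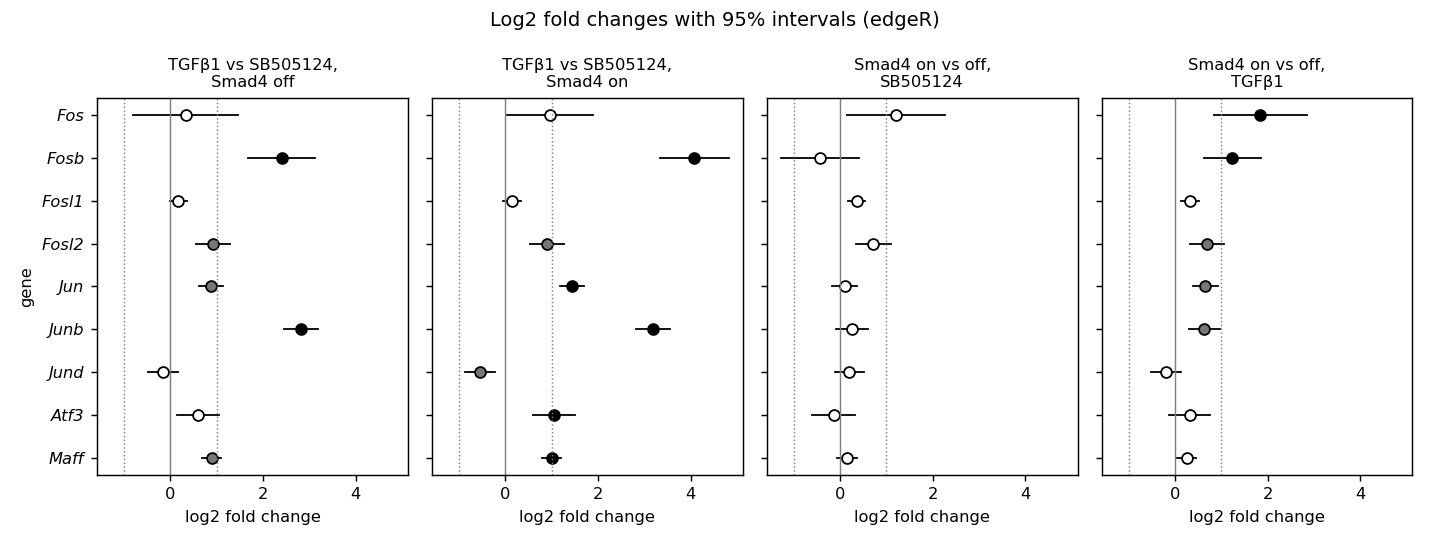
Log2 fold change (horizontal axis) of each AP-1 gene in 4 comparisons, with 95% intervals from edgeR; black points are called (adjusted p under 0.05 and over 2-fold), grey points passed the adjusted p alone, white points did not. Dotted lines mark 2-fold; *Junb* and *Fosb* lie beyond it in both TGFβ1 panels, and no point is filled in the panel for Smad4 under SB505124.

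Since several members moved together, the DNA just before their listed start sites was read from RefSeq on GRCm38.p6, which held 10 promoters of 8 members and none for *Fosl1*. The *Jund* entry ends at chr8:70697788, before the counted gene starts at 70698949, and the first *Maff* entry ends at chr15:79346670, before 79347541. Both stay in the motif counts below. The 4 shown, 250 bases each, belong to the genes with the largest TGFβ1 responses (*Fosb*, *Junb*), and to *Jun* and *Maff*, which carry fuller versions of the cyclic AMP response element (CRE), a site bound by ATF, CREB and JUN proteins. Capitals mark TGACG, the core of the CRE, and the 8-letter sites TGACGTCA and TGACATCA, on either strand.
Fosb, chr7:19310046-19310295, minus strand: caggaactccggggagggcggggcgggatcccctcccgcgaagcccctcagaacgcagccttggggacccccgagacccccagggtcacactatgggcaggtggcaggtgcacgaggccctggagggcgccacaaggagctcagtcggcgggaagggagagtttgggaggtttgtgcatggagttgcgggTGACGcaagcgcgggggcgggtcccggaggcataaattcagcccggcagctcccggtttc
Junb, chr8:84978749-84978998, minus strand: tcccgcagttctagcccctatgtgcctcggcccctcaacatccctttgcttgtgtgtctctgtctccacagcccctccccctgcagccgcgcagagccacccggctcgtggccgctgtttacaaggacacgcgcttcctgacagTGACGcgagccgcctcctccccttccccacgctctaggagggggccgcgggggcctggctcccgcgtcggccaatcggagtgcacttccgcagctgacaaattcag
Jun, chr4:95052223-95052472, minus strand: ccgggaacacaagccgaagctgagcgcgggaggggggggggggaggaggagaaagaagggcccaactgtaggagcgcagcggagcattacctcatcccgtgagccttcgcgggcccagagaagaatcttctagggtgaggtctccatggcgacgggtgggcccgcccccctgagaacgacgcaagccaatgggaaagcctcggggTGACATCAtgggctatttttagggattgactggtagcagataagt
Maff, chr15:79347270-79347519, plus strand: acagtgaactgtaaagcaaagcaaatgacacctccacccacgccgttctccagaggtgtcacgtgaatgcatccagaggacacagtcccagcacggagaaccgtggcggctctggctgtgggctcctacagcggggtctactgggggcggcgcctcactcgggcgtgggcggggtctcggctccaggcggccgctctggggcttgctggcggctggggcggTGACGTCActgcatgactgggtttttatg

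In these windows *Fosb* has 1 TGACG, whose first base is 60 bases before the start, and *Junb* has 1, at 106 bases before the start. The CRE of *Maff*, TGACGTCA, begins 29 bases before the start and holds 2 overlapping copies of TGACG, 1 per strand; *Maff* has 3 listed promoters, and the one with the CRE is shown. *Jun* has no TGACG but holds TGACATCA 45 bases before its start. Counting windows of 300 bases (50 bases past the start included), TGACG on either strand was in 6 of the 10 promoters, from 5 members (*Fos*, *Fosb*, *Junb*, *Atf3*, *Maff*), and in 20.8% of 32851 mouse promoters. TGACGTCA was in 1 of 10 against 1.79%, and TGACATCA in 2 of 10, from *Jun* and *Maff*, against 3.62%. The AP-1 site TGACTCA was in none of the 10 and in 5.2% of all. The 5-letter SMAD box CAGAC was in 1 of 10, a further *Maff* promoter, and in 49.6% of all, and the GC-rich SMAD site GGCGC was in 5 of 10 and in 36.9% of all. Such matches are letters in a short window, and no binding was measured.

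The second comparison asked how AP-1 genes differed between Smad4-on and Smad4-off cells under the same treatment. Under TGFβ1, 2 of the 9 members were called higher in Smad4-on cells, *Fos* and *Fosb*, where 1.31% of all tested genes were called higher (3.12% in either direction). By adjusted p alone 5 members were higher (*Fosl2*, *Jun* and *Junb* as well) and none lower, against 3.52% and 3.28% of all genes, and the median log2 fold change was 0.64, beside −0.01 for all genes. Under SB505124 no member was called, against 1.09% of all genes, and none passed the adjusted p in edgeR, against 1.59%. With the inhibitor 3 members (*Fos*, *Fosl1*, *Fosl2*) had an unadjusted p under 0.05 in edgeR, against 12.6% of all genes. DESeq2 called none over 2-fold, but *Fosl2* and *Fosl1* passed its adjusted p with the line in the model, and *Fosl2* passed in edgeR with no filter on low counts (adjusted p = 0.00041). Of the markers, *Col1a1* was called higher with Smad4 on in both treatments (1.78 with TGFβ1, 2.08 with SB505124), and *Kdr* lower with TGFβ1 (−3.35). Their part in the AP-1 values was not tested.

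*Fos* gave the largest value. It was at 0.699 CPM in B73 and 0.747 CPM in B87 in Smad4-off cells under SB505124, at 1.57 and 1.79 CPM in Smad4-on cells under SB505124, at 0.600 and 1.25 CPM in Smad4-off cells under TGFβ1, and at 4.03 and 2.50 CPM in Smad4-on cells under TGFβ1. Each Smad4-on library lay above each Smad4-off library, which held for *Fos* alone among the 9 and for 2.11% of all tested genes. The log2 fold change of Smad4-on against Smad4-off was 1.85 ± 0.42 under TGFβ1 (adjusted p = 0.0481) and 1.21 ± 0.45 under SB505124 (adjusted p = 0.32, edgeR). The lines differed in size under TGFβ1, 2.57 in B73 and 0.95 in B87.

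*Fosb* was 1.24 ± 0.26 higher in Smad4-on cells under TGFβ1 on the log2 scale (adjusted p = 0.0384), with 0.82 in B73 and 1.66 in B87, and stood at −0.44 ± 0.36 under SB505124 (adjusted p = 0.683, edgeR). The more abundant members gave smaller values with smaller errors under TGFβ1: 0.69 ± 0.16 for *Fosl2* (adjusted p = 0.0462), 0.66 ± 0.11 for *Jun* (adjusted p = 0.0182) and 0.64 ± 0.14 for *Junb* (adjusted p = 0.0445, edgeR). *Fosl2* had a like value under the inhibitor (0.71 ± 0.16, adjusted p = 0.102, edgeR). *Fosl1* had smaller values, which were alike in the TGFβ1 and inhibitor treatments (0.33 ± 0.08, adjusted p = 0.0538, and 0.36 ± 0.08, adjusted p = 0.101, edgeR). In DESeq2 with the line all 3 of these passed, with adjusted p = 0.00295 for *Fosl2* under the inhibitor and 0.0249 (TGFβ1) and 0.0295 (SB505124) for *Fosl1*. *Jund*, *Atf3* and *Maff* did not pass in either treatment, with values from −0.19 to 0.32.

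These Smad4 differences were near the threshold. The *Fos* call remained on leaving out 1 of the 8 libraries (Smad4-on, TGFβ1, B87) and was lost on leaving out each of the other 7 (adjusted p up to 0.337). The *Fosb* call was lost without any of the 4 TGFβ1 libraries, with values from 0.90 to 1.61. Among the rises short of 2-fold, that of *Fosl2* still passed the adjusted p only without either Smad4-on SB505124 library. That of *Jun* was lost on leaving out either Smad4-on TGFβ1 library or the Smad4-off TGFβ1 library of B87, and that of *Junb* on leaving out any of the 4 TGFβ1 libraries. Without the term for the line neither *Fos* nor *Fosb* was called (adjusted p = 0.185 and 0.233, edgeR), whereas DESeq2 with the line called both (adjusted p = 0.0327 and 0.00776). The rise of *Jun* did not pass without the line in either tool (adjusted p = 0.636 in edgeR, 0.577 in DESeq2). Those of *Fosl2* and *Junb* did not pass without it in edgeR (adjusted p = 0.179 for each) but passed in DESeq2 (adjusted p = 0.00585 and 0.00498). In 5 members (*Fos*, *Fosb*, *Fosl2*, *Junb*, *Maff*) both Smad4-on TGFβ1 libraries were above the other 6, as in 14.3% of all tested genes.

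**Figure D4:**
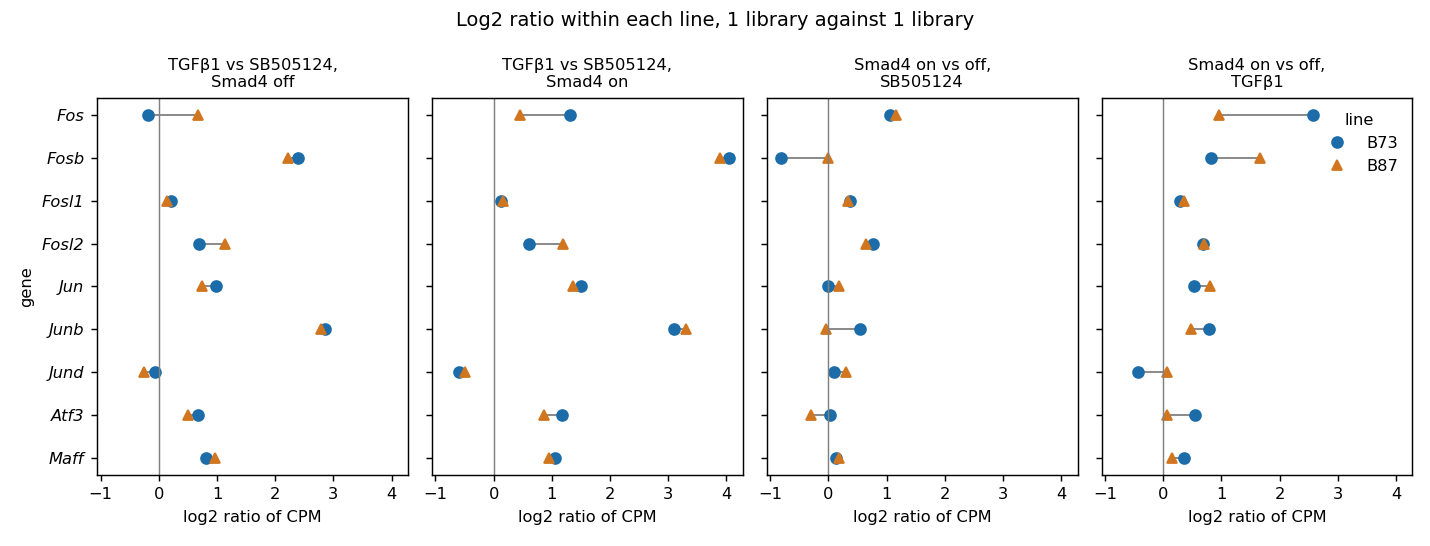
Log2 ratio of CPM (horizontal axis) within B73 (circles) and within B87 (triangles), 1 library against 1 library, for the same 4 comparisons; the grey bar joins both lines of a gene. The TGFβ1 ratios of *Junb*, *Fosb*, *Fosl1*, *Jun* and *Maff* lie close between lines. In the panel for Smad4 under TGFβ1 *Fos* and *Fosb* spread furthest apart, *Jund* and *Atf3* spread less, and *Jund* differs in sign.

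Whether the response to TGFβ1 itself differed with Smad4 was tested as the interaction of both. No member passed, against 0.189% of all tested genes called, and 2 of the 9 had an unadjusted p under 0.05, against 10.4%. These were *Fosb* (difference of log2 fold changes 1.67 ± 0.44, adjusted p = 0.251) and *Jun* (0.56 ± 0.16, adjusted p = 0.276, edgeR), both with the larger response in Smad4-on cells. DESeq2 called no member either. With no filter on low counts edgeR called *Fosb* (adjusted p = 0.0291). The *Fosb* difference was close in the lines, with 1.64 in B73 and 1.68 in B87. For *Junb* it was 0.38 ± 0.20 with a 95% interval of −0.10 to 0.86, and for *Fosl2* −0.02 ± 0.22 (−0.54 to 0.50). The Smad4-off rises of *Junb*, *Fosb*, *Jun*, *Fosl2* and *Maff* under TGFβ1 were measured in cells that kept some *Smad4* RNA. Smad4-off libraries had 29.6% to 34.6% of the *Smad4* RNA level of their Smad4-on partner. These libraries do not report SMAD4 protein, and the part of the remaining *Smad4* in these rises was not tested.

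The lines differed in 4 members by adjusted p, none over 2-fold, where 8.37% of all genes were called and 18.6% passed the adjusted p. *Jun* was higher in B87 than in B73 (log2 difference 0.90 ± 0.08, adjusted p = 0.000543, edgeR), in each of the 4 groups. *Fosl1* (−0.38 ± 0.06, adjusted p = 0.00457), *Jund* (−0.36 ± 0.10, adjusted p = 0.0443) and *Atf3* (−0.51 ± 0.14, adjusted p = 0.0407, edgeR) were lower in B87. Those of *Jund* and *Atf3* each passed the adjusted p on leaving out 2 of the 8 libraries and not on leaving out the other 6 (adjusted p up to 0.186 and 0.129, edgeR). The ductal and fibroblast markers given above differed between the lines too, and their part in these differences was not tested. No member's response to TGFβ1 or to Smad4 was called as different between the lines, against 0% and 0.392% of all genes. By an unadjusted p under 0.05 it was 1 member for TGFβ1, against 8.38% of all genes, and 3 for Smad4 (*Fosb*, *Junb*, *Jund*), against 9.85%, and DESeq2 called none. The member for TGFβ1 was *Fosl2*, whose response was 0.51 ± 0.10 larger in B87 (adjusted p = 0.489, edgeR).

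Genes around AP-1 were counted in lists, to be read against the share of all tested genes called in either direction, which was 13.9% for TGFβ1 in Smad4-on cells, 5.93% for TGFβ1 in Smad4-off cells, 3.12% for Smad4 under TGFβ1 and 1.09% for Smad4 under SB505124. The lists were chosen with earlier results of these data known, so their counts describe these data and do not test the lists. Of 24 known AP-1 targets, 23 were tested; in Smad4-on cells 15 were called higher and 1 lower under TGFβ1 (median log2 fold change 1.96), and in Smad4-off cells 9 and 1 (median 0.84). *Il11*, a cytokine of the IL-6 family, had log2 fold changes of 6.49 ± 0.55 with Smad4 on and 4.04 ± 0.65 with Smad4 off, and *Tnc*, the matrix protein tenascin C, had 4.63 ± 0.28 in Smad4-on cells. *Ptgs2*, the prostaglandin-forming enzyme COX-2, had 3.15 ± 0.18 in Smad4-off cells. *Mmp3*, the protease stromelysin-1 and a textbook AP-1 target, fell by 7.56 and by 3.60 on the log2 scale. All of these had an adjusted p of at most 0.0099 in edgeR. Between Smad4 states under TGFβ1, 6 targets were called higher and 3 lower (median 0.74), led by *Mmp3* (−3.67 ± 0.55), *Il11* (3.37 ± 0.44) and *Ccl2* (−3.27 ± 0.53). Under SB505124 it was 2 higher, among them *Areg* (1.44 ± 0.21), and 1 lower, *Plau* (−1.44 ± 0.23), with a median of 0.15.

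Other immediate-early genes, which like *Fos* and *Jun* respond to stimuli without new protein, numbered 15 tested of 16. Under TGFβ1 4 were called higher and none lower in either Smad4 state, where 5.62% (on) and 3.11% (off) of all genes were called higher, with medians of 0.73 and 0.68. *Egr2* had 5.03 ± 0.57 and 3.67 ± 0.62 from low counts, at most 4 per library under SB505124. *Gadd45b* had 2.55 ± 0.11 and 1.65 ± 0.11, *Ier3* 2.26 ± 0.14 and 1.24 ± 0.14, and *Dusp1*, a MAPK phosphatase, 1.66 ± 0.25 and 1.87 ± 0.25. Between Smad4 states *Ier3* was called under TGFβ1 (1.03 ± 0.13, median of the list 0.36) and none under SB505124 (median 0.03).

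Of 22 tested genes of the MAPK cascade, which acts on AP-1 from above, 3 were called higher and 1 lower under TGFβ1 in Smad4-on cells (median 0.20), and none in Smad4-off cells (median 0.08), where 13.9% and 5.93% of all genes were called; the count of 4 is close to that share. *Dusp5*, a phosphatase of ERK, had 2.32 ± 0.17, the ERK kinase gene *Map2k1* 1.66 ± 0.12, *Dusp10*, a phosphatase of JNK and p38, 1.37 ± 0.10, and the p38 kinase gene *Map2k6* −1.28 ± 0.17. *Dusp5* and *Map2k6* were also called between Smad4 states under TGFβ1 (1.35 ± 0.16 and −1.29 ± 0.17, median of the list 0.15). RNA levels do not report on the activity of these kinases. Among 7 tested further AP-1 and MAF genes only *Maf* was called, lower under TGFβ1 in both Smad4 states (−2.13 ± 0.33 and −2.16 ± 0.30, medians of the list 0.10 and −0.05), a single gene beside the same 13.9% and 5.93%. It was at 3.08 to 6.94 CPM under SB505124 and at 0.714 to 1.67 CPM under TGFβ1, and its small-MAF relative *Mafk* rose short of 2-fold in Smad4-on cells (0.96 ± 0.12).

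AP-1 genes also respond to the handling of cells, so stress genes were read beside them. The 10 heat-shock and harvest genes summed to 2050 to 2360 CPM over the 8 libraries. *Hspa1a* was called lower under TGFβ1 in Smad4-on cells (−1.51) and none in Smad4-off cells (medians of the list 0.16 and −0.02), against 13.9% and 5.93% of all genes. *Hspb1* was called lower with Smad4 on, at −1.20 under TGFβ1 and −1.66 under SB505124 (medians 0.04 and 0.03, against 3.12% and 1.09% of all genes). Of 8 further stress genes (*Atf4*, other leucine-zipper factors such as *Cebpb*, and stress targets), *Ddit4* was called higher under TGFβ1 (2.50 with Smad4 on, 2.07 with it off) and *Cebpb* lower in Smad4-on cells (−1.25), with medians of 0.12 and −0.09 and the same background. Between Smad4 states none of the 8 was called (medians 0.17 and −0.11). The part of handling in the AP-1 values was not tested.

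The pattern of each called member over the 8 libraries was set against all other tested genes with a mean of at least 1 on the log2 CPM scale (11099 genes, 11100 for *Fos*). Likeness was the root mean square distance between log2 CPM values centered within each line, which is 0 for an identical pattern. Values were not scaled to the size of a gene's change, so genes that change little can lie closer to others. The centered values spanned 1.21 for *Maff*, 1.22 for *Atf3*, 1.55 for *Jun*, 2.57 for *Fos*, 3.64 for *Junb* and 4.38 for *Fosb*. *Maff* had the closest neighbors, *Dlgap4* (distance 0.05) and *Nfil3* (0.06), followed by *Jun* with *Ppfibp1* (0.08) and *Itgb1* (0.09) and *Atf3* with *Slc7a6* (0.09) and *Eif2b2* (0.10). *Junb* lay nearest to *Gm20544* (0.22) and *Clu* (0.23), and *Fosb* to *Zfp469* (0.28) and *Ctgf* (0.29). *Fos*, a gene with few counts, lay nearest to *Efnb1* (0.28) and *Trim36* (0.32), its nearest being about as distant as that of *Fosb*. Among the members, *Atf3* and *Maff* were the most alike pair (0.16), *Jun* and *Maff* came next (0.20), and *Junb* was nearer to *Fosb* (0.46) than to *Jun* (0.95) or *Jund* (1.72). Points of this measure share libraries and depth, so it describes these 8 libraries.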

How the data were processed

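RNA-seq was done on 8 libraries of cultured cells from the PDAC lines B73 and B87. The authors prepared stranded poly(A) libraries, trimmed 75-base single-end reads with Trimmomatic 0.36, aligned them to GRCm38 with STAR 2.5.3a and counted reads per Ensembl gene with featureCounts 1.6.3. The deposited values are raw counts, 1 column per library, for 53465 genes. Counts were tested with edgeR 4.0.16 in R 4.3.3: TMM scaling, the filterByExpr filter (14301 genes) and a quasi-likelihood model of the 4 groups and the line. SE is the log2 fold change over the square root of F. CPM used TMM-scaled totals, and log2 values for single lines a prior count of 2. Each line gave 1 library per group, so the line pairs the groups; deviations from group means correlated between groups at 0.642 to 0.774. With 2 libraries per group and the line in the model, the spread behind the p-values is how far the 2 lines disagree in their responses. It does not come from repeats within a line. The quasi-likelihood test also draws each gene's spread toward that of the other genes. Named genes were all 9 members, up to 4 called genes of a list with the largest change, and 2 nearest neighbors. Members and lists were chosen with earlier results of these data known. Alternatives were other scaling, DESeq2 1.42.0, other filters, no line term and left-out libraries. Scripts were tested on simulated data. Floors cover counting error only. One allele that all groups share and 1 gene of the AP-1 target list, which stays in that list's counts and medians, are not reported here by name.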

Additional observations from a re-analysis of the deposited data

Results flagged for a closer look

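The response to TGFβ1 of *Vegfa*, an AP-1 target of the list that encodes an angiogenic growth factor, differed between Smad4-on and Smad4-off cells by the test of the difference itself. The difference of log2 fold changes was 1.38 ± 0.13 (adjusted p = 0.0206, edgeR). The call was lost in edgeR without the term for the line (1.38, adjusted p = 0.392) and on leaving out 7 of the 8 libraries (1.26 to 1.42, adjusted p up to 0.17), and it remained without the Smad4-on TGFβ1 library of B87 (1.49, adjusted p = 0.0235) and in DESeq2 (adjusted p = 1.36e-14 with the line). These alternatives were applied to *Vegfa* after seeing the data. *Vegfa* was at 57.9 to 69.4 CPM in the 4 SB505124 libraries, at 123 and 118 CPM in Smad4-off cells under TGFβ1 and at 310 and 250 CPM in Smad4-on cells under TGFβ1 (B73, then B87). No test for samples far from their group was made, since each group holds 2 libraries.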

How the results depend on the processing

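The term for the line is the pairing, or replicate block, of this design. Without it edgeR called 0 members between Smad4 states under TGFβ1 (2 with it) and 2 for TGFβ1 in Smad4-on cells (5 with it), and DESeq2 without it called 0 in the former. Of all genes edgeR without the term called 36 against 446 and 1035 against 1993. Leaving out the term changed no other count of members. With only the 4 libraries compared in the fit, 1 member was called between Smad4 states under TGFβ1. Without the 2-fold rule the counts were 5 there, 5 for TGFβ1 in Smad4-off cells and 4 between lines. With no filter on low counts 1 member was called in the interaction. Leaving out each library in turn gave 0 to 1 members called between Smad4 states under TGFβ1. DESeq2 size factors changed no count of members; the cause of these shifts was not tested. *Maff* in Smad4-on cells dropped just under 2-fold in 6 alternatives.

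Leaving out libraries or a line turned the direction of values of members that had not been called. For TGFβ1 in Smad4-off cells the range was −0.35 to 0.87 for *Fos* and −0.34 to 0.028 for *Jund*. For Smad4 under SB505124 it was −0.027 to 0.21 for *Jun* and −0.33 to 0.063 for *Atf3*. For the interaction it was −0.078 to 0.024 for *Fosl1* and −0.23 to 0.20 for *Fosl2*. For B87 against B73 it was −0.19 to 0.43 for *Fos*, −0.068 to 0.14 for *Fosl2* and −0.10 to 0.082 for *Junb*. For the difference of the TGFβ1 response between lines it was −0.82 to 0.89 for *Fos*, −0.55 to 0.33 for *Fosb*, −0.059 to 0.035 for *Fosl1*, −0.23 to 0.37 for *Junb*, −0.29 to 0.24 for *Jund* and −0.072 to 0.12 for *Maff*. For that of the Smad4 effect it was −0.025 to 0.065 for *Fosl1* and −0.34 to 0.25 for *Fosl2*. Within single lines, B73 then B87, further uncalled values had opposite signs: *Fos* and *Maff* in the interaction (1.504 and −0.21, 0.24 and −0.022), *Junb* for Smad4 under SB505124 (0.54 and −0.036) and *Jund* for Smad4 under TGFβ1 (−0.44 and 0.064). A group left with 1 library is assumed to vary like the others. Depth limits *Fos* most, with 14 to 79 counts per library.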
